A study of Mus musculus with 3 samples.

Results

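The siWdr5 and siBard1 libraries of day 6 of reprogramming were set directly against each other. They were 3 libraries per siRNA, taken by their column names, so 6 of the 129 libraries in the count table. The 3 libraries of the non-targeting siRNA (control_nt, called nt here) are given beside them for reference. The study followed mouse embryonic fibroblasts in the first days of conversion to pluripotent stem cells and asked how chromatin-associated proteins act on it. All 9 libraries came from primary wild-type fibroblasts of the BL6 strain, reprogrammed at passage 2. The cells carried lentiviruses with rtTA and the doxycycline-inducible STEMCCA cassette, which encodes Oct4, Sox2, Klf4 and c-Myc, added at an MOI of 1. They were transfected with 40 nM of pooled siRNAs against Wdr5, against Bard1 or without a target, re-plated after 24 hours, and induced in medium with 2 ug/mL doxycycline, 3 uM chiron, 0.25 uM of the TGF-beta receptor inhibitor Alk5i, 50 ug/mL ascorbic acid and LIF. The nt cells therefore had the same cassette, transfection and medium. RNA was profiled by CEL-Seq2, a method that tags the 3′ end of each transcript with a unique molecular identifier and counts the tags. Libraries with the same replicate number were sequenced as 1 pool. Per the study, the siRNA transfections were made in triplicate. The p-values rest on a spread between replicate libraries that was estimated over 127 libraries of 42 conditions, not over these alone.

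WDR5 is a WD-repeat protein that scaffolds the SET/MLL complexes, which methylate lysine 4 of histone H3 at active promoters. BARD1 is the partner of BRCA1, and together they form a ubiquitin ligase that acts on histone H2A and is needed for repair of double-strand breaks by homologous recombination. Fibroblasts that are being reprogrammed lose mesenchymal genes, such as those for collagens, before they gain pluripotency genes. The comparison asks in which genes cells given siRNAs against these proteins differed from each other.

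The guide strands of the siRNAs that were read here show which transcripts the labels refer to. Capitals mark the seed, bases 2 to 8 from the 5′ end.
Bard1 siRNA 1: uUGUCGGUuuaucuugagg
Bard1 siRNA 2: aGAAGAUGugcucacaucc
Wdr5 siRNA 1: cAUAGUUUggcuuaacugg
Wdr5 siRNA 2: cACGGUUGaaaugaacggc
All 4 target coding sequence. Bard1 is on the minus strand, and its sites lie at chr1:71088167-71088185 in exon 3 of 11 and at chr1:71089475-71089493 in exon 2 (GRCm38). Wdr5 is on the plus strand. Its first site lies at chr2:27519355-27519373 in exon 3 of 14, and the second joins exons 7 and 8, with its ends at 27520909 and 27525121 of chromosome 2. Each site was found in the annotated transcripts of 1 gene, its target. Per the study's methods each pool held 3 siRNAs, and the others were not used here.

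The targets themselves were too weakly counted to check the labels. Wdr5 had 2, 3 and 2 counts in siWdr5 replicates 1 to 3, 0, 5 and 1 in siBard1 and 2, 3 and 4 in nt. Its ratio of siWdr5 to siBard1, per total counts, was 1.21 with an exact 95% counting interval of 0.349 to 4.37. Bard1 had 0 counts in siBard1, which allows a level of up to 10.1 CPM, the count scaled to a total of 1000000, against 1 count in siWdr5 and 2 in nt. A lowering of either target was thus not detectable at this depth, and which siRNA a library received rests on its column name. Brca1, the gene of the partner of BARD1, had 1 count in siWdr5 and 4 in siBard1, a ratio of 0.260 with an interval of 0.00528 to 2.63. These limits take in counting error alone.

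The 6 libraries held 68229 to 152976 counts, and replicate 3 was the deepest of each siRNA. Levels below are CPM of the scaled total of the tested genes, so that 1 count was worth 6.94 to 17.1 CPM. Transcripts of the mitochondrial genome took 21.0 to 23.6% of the counts in siWdr5, 19.6 to 25.8% in siBard1 and 22.8 to 26.3% in nt. All 12 fibroblast markers were detected in each group, with a summed level of 5441 to 6464 CPM in siWdr5, 3392 to 4407 in siBard1 and 2230.2 to 3197 in nt, so the groups did not overlap. Col1a1 and Col1a2 were the markers on that list that passed the test. The 6 erythroid markers had 0 counts. Macrophage markers summed to 0, 114 and 0 CPM in siWdr5 replicates 1 to 3 (8 counts, all in replicate 2), 15.97, 17.1 and 41.7 in siBard1 (8 counts) and 16.7, 44.9 and 16.3 in nt (6), with Ptprc and Csf1r at 0. Keratinocyte markers summed to 39.6, 0 and 9.49 CPM in siWdr5 (4 counts), 0, 17.1 and 124.96 in siBard1 (19, nearly all in replicate 3) and 66.6, 165 and 98.0 in nt (27), with Krt5 and Krt14 at 0. In bulk RNA, fewer cells of a type and less RNA per cell cannot be told apart.

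Of 3013 tested genes, 252 (8.36%) differed between siWdr5 and siBard1 at an adjusted p under 0.05 (edgeR quasi-likelihood test with the replicate as a block, Benjamini-Hochberg adjustment). Of these, 96 (3.19%) were higher in siWdr5 and 156 (5.18%) were lower. A change of more than 2-fold was fitted for 66 of the former and 78 of the latter. For 215 of the 252 genes the 3 siWdr5 libraries lay wholly above or below the 3 siBard1 libraries, as they did for 20.9% of all tested genes. The median log2 fold change of all tested genes was 0.00, and with RLE size factors in place of TMM it was 0.11. With that scaling 138 genes were higher and 119 lower, so that the share of higher genes was 53.7% in place of 38.1%. Without the block 127 genes were called (49 higher, 78 lower). The count was 88 without both libraries of replicate 3, 139 without siWdr5 replicate 3 alone, 160 without siBard1 replicate 3 alone and 142 without both libraries of replicate 2.

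**Figure D1:**
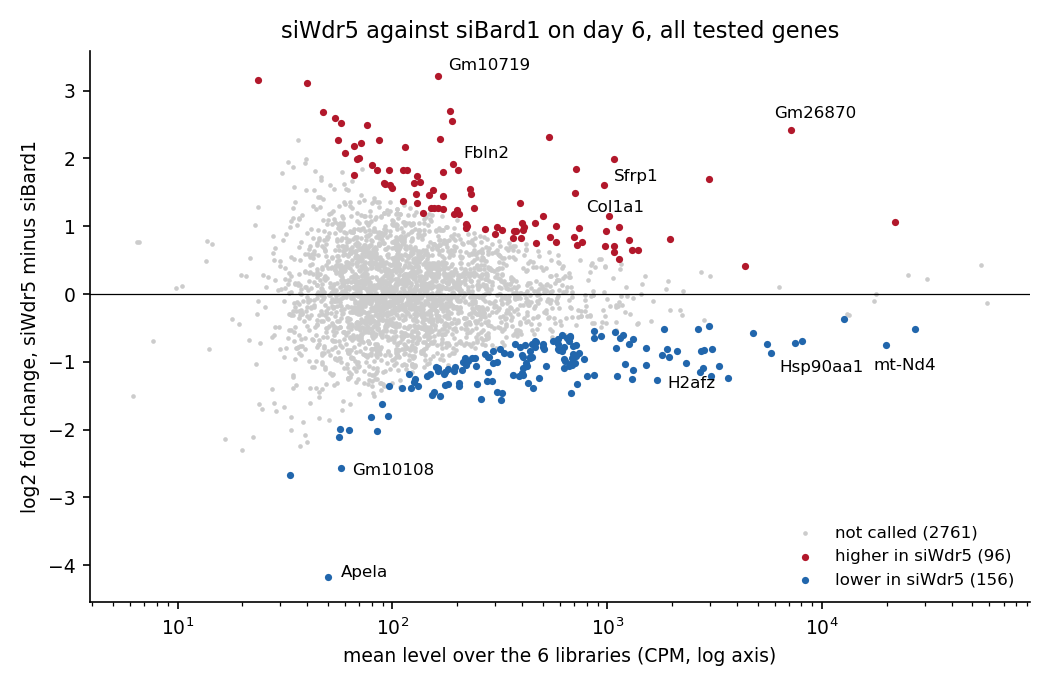
Log2 fold change of siWdr5 minus siBard1 (vertical axis) against the mean level over the 6 libraries in CPM (horizontal, log axis) for the 3013 tested genes. Coloured points are the 96 genes called higher and the 156 called lower in siWdr5, and the called values run from -4.18 to 3.22.

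Of the 96 genes higher in siWdr5, 51 were called above nt in siWdr5 and 0 below it, while in siBard1 11 were called above nt and 24 below it. Of the 156 lower genes, 139 were called below nt in siWdr5 and 0 above it, while in siBard1 9 were below and 9 above. Both comparisons with nt share the nt libraries, and each shares its siRNA libraries with the direct comparison. Over all tested genes siWdr5 differed from nt in 27.2% (12.2% above, 15.1% below) and siBard1 in 10.3% (5.54% above, 4.78% below).

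Among the largest differences with siWdr5 above siBard1 were those of gene models that hold a tandem repeat. Pericentromeric heterochromatin of the mouse is built from major satellite DNA, a tandem repeat, and gene models can be annotated over repeats. By their own sequence, 11 tested models repeat themselves with a period of 231 to 237 bases and at least 60% of bases the same. This window was set around the period of Gm26870, 234 bases. Gm21738 is on chromosome 14, and Gm26870 and the others lie within chr9:3000282-3038316. A unit is shown so that the repeat can be seen, from the most abundant model. It is bases 653 to 886 of the 1170-base transcript of Gm26870, a long noncoding RNA on the minus strand of chr9:3000282-3038313 (GRCm38), with capitals where the next unit carries the same base (231 of 234).
Gm26870 unit: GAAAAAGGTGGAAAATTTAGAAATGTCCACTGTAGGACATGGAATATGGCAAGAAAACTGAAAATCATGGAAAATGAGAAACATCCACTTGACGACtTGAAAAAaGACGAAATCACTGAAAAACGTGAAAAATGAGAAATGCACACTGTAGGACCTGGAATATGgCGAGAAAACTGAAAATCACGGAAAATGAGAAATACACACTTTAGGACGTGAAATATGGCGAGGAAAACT
Whether the unit is major satellite was not tested. Gm10800 and Gm10801 on chromosome 2 share 3′ sequence with other models of the group and are described with them. They were added by name and do not meet the rule, with periods of 225 and 231 bases at 56.3% and 52.8% of bases the same.

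All 13 of these models were called higher in siWdr5 than in siBard1, as were 3.19% of all tested genes. The group was built around a called model and added to by name, so this count is no test. All but Gm26870, which shares 0%, share 3′ sequence with other genes, so they are not independent. Their summed level was 22584, 18479 and 25192 CPM in siWdr5 replicates 1 to 3, 5781, 4643 and 4464 in siBard1 and 17586, 13251 and 16429 in nt. The mean in siWdr5 was 4.45 times that in siBard1, and the siBard1 libraries lay below all nt libraries while the siWdr5 libraries lay above them. Gm26870, the most abundant, had 12388, 10391 and 13337 CPM in siWdr5, 2874, 2073 and 1929.9 in siBard1 and 10358, 7747 and 8374 in nt. Its log2 fold change was 2.42 ± 0.20 (SE, n = 3 per group, edgeR adjusted p 1.33e-22). Against nt it was 0.46 in siWdr5 (edgeR adjusted p 0.0504) and -1.96 in siBard1 (edgeR adjusted p 1.79e-15). The largest fitted change among these models was that of Gm10719, with 343, 185 and 379.7 CPM in siWdr5 and 15.97, 0 and 55.5 in siBard1 (3.22 ± 0.44, edgeR adjusted p 1.37e-09). Gm10720 lost its call without replicate 3 (adjusted p 0.163) or without siBard1 replicate 3 alone (0.0932), and Gm17535 without replicate 3 (0.0609). For Gm10721 and Gm10722 such values were not taken out, so whether their calls held is not given.

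Across the 42 conditions with used libraries, siBard1 had the lowest mean of the repeat models, 4963 CPM. Every library of the other conditions lay above its highest one, and the next condition, siCdk1, had a mean of 8445 CPM. siWdr5 stood at rank 17 from the top, with 30 libraries of other conditions above its highest one. siBrca1, the siRNA against the partner of BARD1, had 26718, 22749 and 26053 CPM, above every siBard1 library. In untransfected cells Gm26870 had a mean of 9383 CPM on Day00, 8393 on Day03 and 5036 on Day06.

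**Figure D2:**
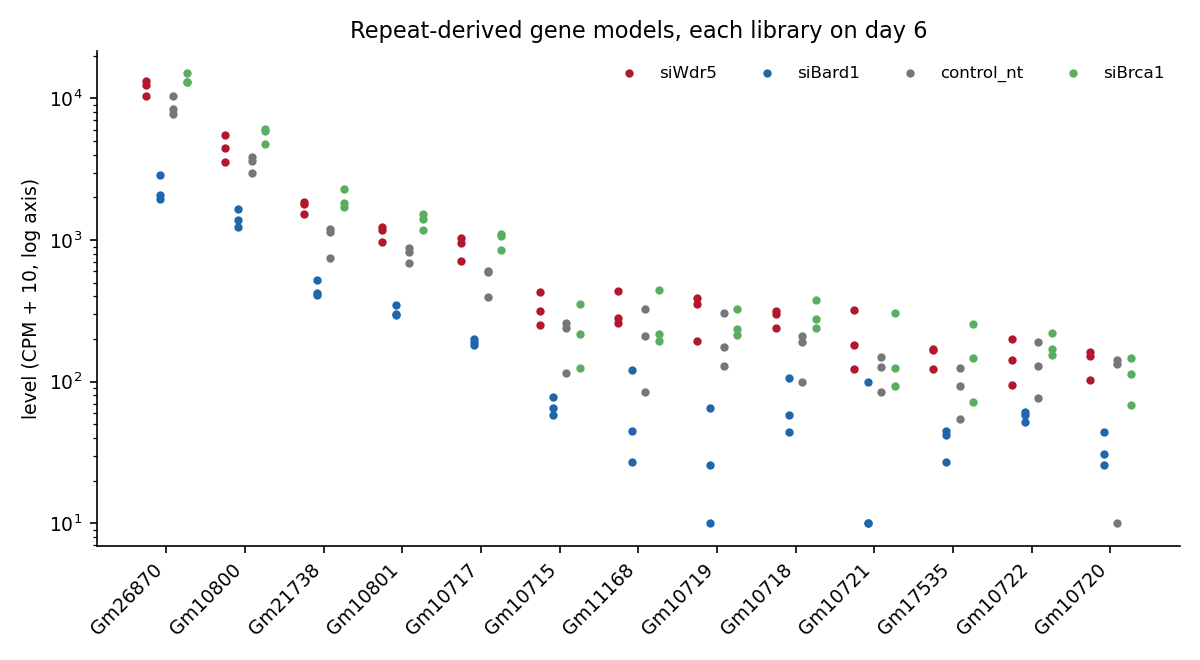
Level of the repeat models (log axis) in each of the 3 libraries of siWdr5, siBard1, control_nt and siBrca1. In every model the siBard1 points lie under those of siWdr5, and for Gm26870 they lie between 1929.9 and 2874 CPM against 10391 to 13337 in siWdr5.

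Genes of the extracellular matrix were higher in siWdr5 where they were called. Of 8 tested collagens, 2 were called higher and 0 lower, against 3.19% and 5.18% of all tested genes. For 7 collagens the log2 fold change was above 0 (median 0.83). Col1a1 and Col1a2 encode the chains of type I collagen, the main fibrillar collagen of fibroblasts. Col1a1 had 964, 1023 and 1177 CPM in siWdr5, 447, 223 and 423 in siBard1 and 167, 209 and 139 in nt. The groups did not overlap and stood in the order siWdr5, siBard1, nt (log2 fold change of siWdr5 to siBard1 1.49 ± 0.23, edgeR adjusted p 6.61e-08). Col1a2 had 1175, 1407 and 1309.9 CPM in siWdr5 and 894, 479.7 and 673 in siBard1 (0.93 ± 0.20, edgeR adjusted p 0.000299). The other collagens were not called, with Col8a1 at -0.49 and Col3a1, Col5a2, Col6a1, Col6a2 and Col12a1 between 0.59 and 0.97. Both collagen calls held without any 1 replicate.

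Over all tested genes 3.19% were called higher and 5.18% lower. Of 11 tested fibronectin, matricellular and elastic fibre genes, 4 were called higher and 0 lower (median 0.37), and 5 had a log2 fold change under 0. In a fit of the 2145 genes alone with no more than 10% of their 3′ sequence shared with another gene (unshared), 1 was called higher (median 0.24), and Sparc, Thbs1 and Thbs2 lost their calls (edgeR adjusted p 0.0656, 0.0858 and 0.0628). Fbln2 encodes fibulin-2, a glycoprotein of elastic fibres and basement membranes. It had 211, 369.6 and 342 CPM in siWdr5, 63.9, 68.5 and 97.2 in siBard1 and 33.3, 15.0 and 24.5 in nt, which is 1.91 ± 0.39 on the log2 scale (edgeR adjusted p 0.000112). Sparc, a collagen-binding protein, had 1757, 1478 and 1860.5 CPM against 1293, 857 and 1089.9 (0.65 ± 0.18, edgeR adjusted p 0.00750). Thbs1 and Thbs2 encode thrombospondins, with log2 fold changes of 0.65 ± 0.19 and 1.19 ± 0.35 (edgeR adjusted p 0.0142 and 0.0169). Fbln2 held without any 1 replicate, but the others did not: Sparc had an adjusted p of 0.172 without replicate 3, Thbs1 of 0.235 without replicate 2, and Thbs2 of 0.119, 0.0871 and 0.0634 without replicates 1, 2 and 3. All of Sparc, Thbs1 and Thbs2 lost their calls on leaving out siWdr5 replicate 3 alone (0.119, 0.0807 and 0.0900) or siBard1 replicate 2 alone (0.0716, 0.117 and 0.0592), Thbs1 and Thbs2 on leaving out siBard1 replicate 1 (0.0511 and 0.0881), and Thbs1 on leaving out siWdr5 replicate 2 (0.0854). Of 5 tested genes of collagen processing and crosslinking and 7 of matrix proteases and their inhibitors, 0 were called (medians 0.37 and 0.27).

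Among 5 matrix proteoglycans, Vcan, which encodes versican, was the 1 called. It had 911, 668 and 712 CPM in siWdr5, 511, 343 and 319 in siBard1 and 183, 135 and 163 in nt (1.00 ± 0.24, edgeR adjusted p 0.00111). This call was lost when replicate 3 was left out (0.0766) and when only siBard1 replicate 3 was (0.0501). Sfrp1, a secreted modulator of Wnt signalling, had 1334, 1606 and 1424 CPM in siWdr5, 447, 479.7 and 486 in siBard1 and 183, 209 and 212 in nt. Each group kept within a narrow range and none overlapped (1.61 ± 0.21, edgeR adjusted p 4.19e-10). Cdh11, a cadherin of mesenchymal cells, had 304, 355 and 379.7 CPM in siWdr5 and 112, 103 and 124.96 in siBard1 (1.55 ± 0.34, edgeR adjusted p 0.000285). It was the 1 gene called of 9 fibroblast surface and filament genes, of which 3 had a log2 fold change under 0 (median 0.19). In the fit of unshared genes alone the median of that list was -0.01. Of 23 contractile and actin-bundling genes, 0 were called higher and 1, Myl6, lower (median -0.02). Of 6 mesenchymal transcription factors and 7 TGF-beta responsive genes 0 were called (medians 0.22 and 0.33), and with RLE size factors 1 of the latter was.

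Growth genes that are imprinted or belong to the IGF axis were also higher where called. Of 11 tested, 4 were higher and 0 lower (median 0.94), against 3.19% and 5.18% of all tested genes. In the fit of genes with unshared 3′ sequence alone, which does not hold Igf2, 1 was higher (median 0.52), and Peg3 and Gnas lost their calls (edgeR adjusted p 0.0656 and 0.0571). Igf2, a growth factor expressed from the paternal allele, had 343, 682 and 683 CPM in siWdr5, 208, 171 and 257 in siBard1 and 99.9, 89.7 and 73.5 in nt (1.34 ± 0.28, edgeR adjusted p 0.000145). Its 3′ end is shared with 1 other annotated gene, so its counts may include that gene. H19, the noncoding RNA next to Igf2, had 1308, 2075 and 1187 CPM in siWdr5, 687, 839.6 and 680.3 in siBard1 and 849, 1092 and 539 in nt (0.98 ± 0.22, edgeR adjusted p 0.000606). The siBard1 libraries lay above nt for Igf2 and within the range of nt for H19. Peg3 and Gnas had log2 fold changes of 1.19 ± 0.36 and 0.94 ± 0.27 (edgeR adjusted p 0.0199 and 0.0128). Without replicate 3 the adjusted p was 0.537 for Peg3 and 0.309 for Gnas, and without replicate 2 it was 0.130 for Gnas and 0.0510 for H19. Without the replicate block it was 0.115 for H19, 0.0951 for Peg3 and 0.0750 for Gnas. Peg3 and Gnas also lost their calls on leaving out siWdr5 replicate 3 (0.261 and 0.176) or siBard1 replicate 3 (0.210 and 0.101), and Gnas on leaving out siBard1 replicate 2 (0.0613).

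Noncoding RNAs of the nucleus were among the higher genes, with 2 of 4 called, against 3.19% called higher over all tested genes. Malat1, a speckle-associated RNA, had 2787, 2615 and 2117 CPM in siWdr5, 1741, 1268 and 1270.4 in siBard1 and 2248, 2288 and 1511 in nt (0.81 ± 0.18, edgeR adjusted p 0.000410). Kcnq1ot1, the antisense RNA of an imprinted cluster, had 264, 114 and 171 CPM against 79.8, 34.3 and 41.7 (1.84 ± 0.50, edgeR adjusted p 0.00769) and lost its call without replicate 3 (0.154), siWdr5 replicate 1 (0.0574) or siBard1 replicate 3 (0.0996).

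**Figure D3:**
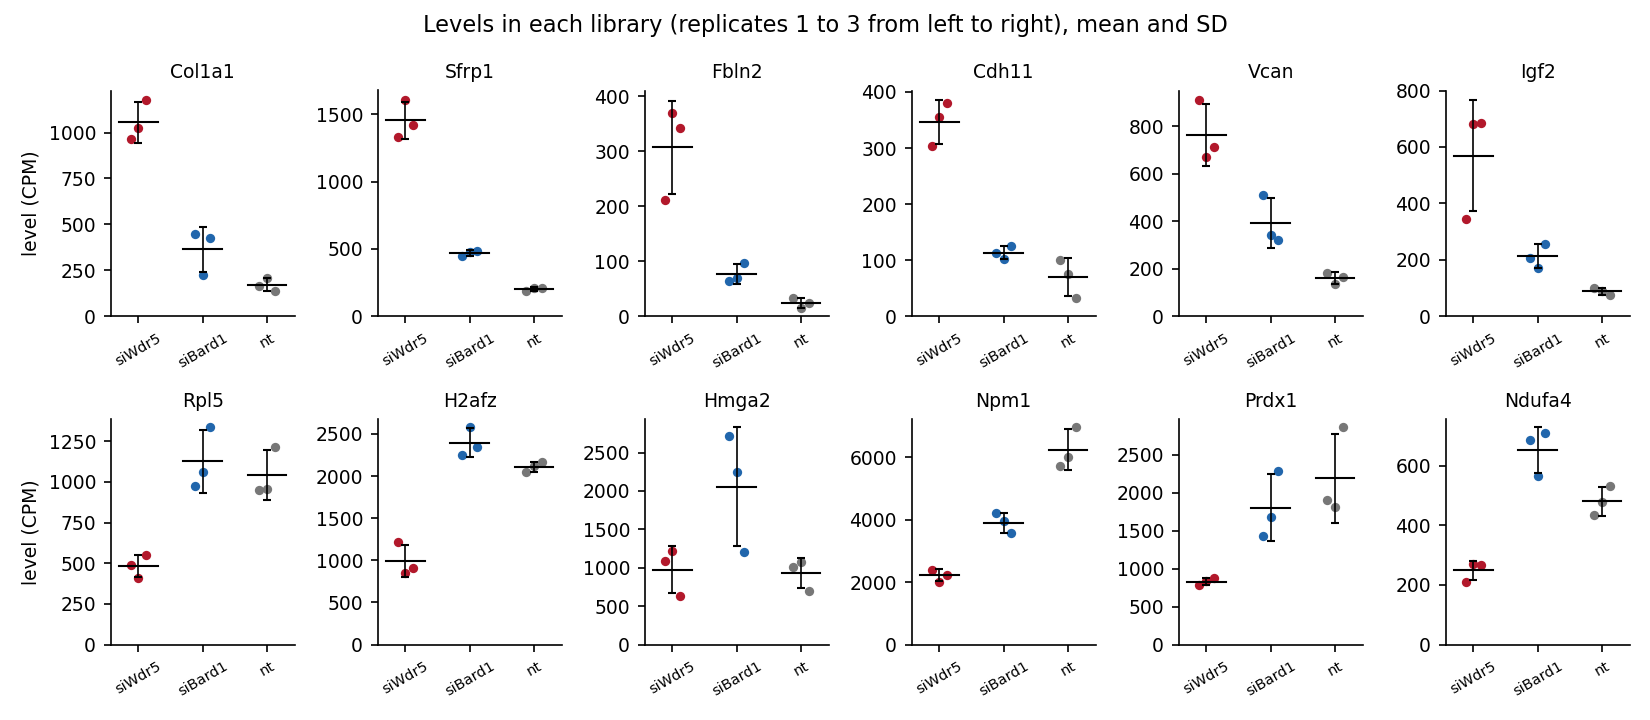
Level in CPM (vertical axes, from 0) of 6 genes called higher in siWdr5 (upper row) and 6 called lower (lower row), with 1 point per library of siWdr5, siBard1 and nt, a line at the mean and bars of 1 SD (n = 3). The siWdr5 and siBard1 points do not overlap in any panel except that of Hmga2, where 1 siWdr5 library (1222 CPM) is above the lowest siBard1 library (1208 CPM).

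Ribosomal protein genes were the list with the most members lower in siWdr5. Of 70 tested cytoplasmic ribosomal protein genes, 17 were called lower and 0 higher, against 5.18% and 3.19% of all tested genes. Of the 70, 64 had a log2 fold change under 0 (median -0.36). With RLE size factors the median was -0.26, with 12 lower and 1 higher. Many of these genes have near-identical processed pseudogenes, so their counts are uncertain. Of the 21 whose 3′ sequence is not shared, 6 were called lower, among them Rpl5 and Rpl11, against 2.94% of all unshared genes. Rpl5, which binds 5S rRNA, had 489, 412 and 551 CPM in siWdr5, 974, 1062 and 1339.8 in siBard1 and 949, 957 and 1217 in nt (-1.21 ± 0.20, edgeR adjusted p 6.39e-07). For Rpl5 siBard1 against nt did not pass the test, at 0.11 (edgeR adjusted p 0.772). The count of lower ribosomal protein genes was 17, 10 and 7 without replicates 1, 2 and 3.

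Of 481 tested pseudogenes 63 (13.1%) were called lower and 10 (2.08%) higher, against 5.18% and 3.19% of all tested genes. Among the lowest p-values were those of Rpl10a-ps1, Rpl7-ps7 and Gm12174, whose 3′ sequence is shared to 100%, 86.2% and 86.0% with other genes, so that their counts cannot be assigned. Rpl7 itself, with 14.04% shared, had 2298, 2175 and 1984 CPM in siWdr5 and 4950.3, 4301 and 4165 in siBard1 (-1.05 ± 0.15, edgeR adjusted p 1.91e-09). Of 2145 tested genes with no more than 10% of shared 3′ sequence, 66 were called higher and 63 lower. A fit of these genes alone called 32 higher and 66 lower.

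Of 13 tested histone and high-mobility-group genes, 2 were called, both lower in siWdr5, as were 5.18% of all tested genes. H2afz encodes the histone variant H2A.Z. It had 1215, 853 and 911 CPM in siWdr5, 2252, 2587 and 2346 in siBard1 and 2048, 2124 and 2165 in nt (-1.26 ± 0.17, edgeR adjusted p 9.57e-10). Against nt it was -1.09 in siWdr5 (edgeR adjusted p 1.01e-07) and 0.18 in siBard1 (edgeR adjusted p 0.538). Hmga2, an architectural DNA-binding protein of embryonic cells, had 1083, 1222 and 626 CPM in siWdr5, 2715, 2245 and 1208 in siBard1 and 1016, 1077 and 703 in nt (-1.05 ± 0.19, edgeR adjusted p 5.24e-06). Here siBard1 was the group that differed from nt, by 1.09 (edgeR adjusted p 3.26e-06), against 0.04 in siWdr5 (edgeR adjusted p 0.893). Both calls held without any 1 replicate.

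Of 28 tested ribosome biogenesis genes, Npm1 was called lower and Ncl higher. Npm1 encodes nucleophosmin, a chaperone of the nucleolus, and had 2404, 2018 and 2231 CPM in siWdr5, 4199.8, 3958 and 3568 in siBard1 and 5729, 5997 and 6977 in nt (-0.81 ± 0.15, edgeR adjusted p 5.59e-06). Both siRNAs were called below nt, at -1.49 and -0.68 (edgeR adjusted p 4.45e-18 and 0.000133). Ncl, nucleolin, differed by 0.52 ± 0.17 (edgeR adjusted p 0.0304). Its call was lost in the fit of genes with unshared 3′ sequence alone (adjusted p 0.196), without replicate 2 or 3 (0.227 and 0.279), and on leaving out siWdr5 replicate 1 (0.0990), siWdr5 replicate 2 (0.0997), siBard1 replicate 2 (0.0933) or siBard1 replicate 3 (0.297).

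Splicing factors and cytosolic chaperones were called in both directions, and the translation factors called were higher in siWdr5. Of 38 translation factors, 5 were called higher in siWdr5 and 0 lower (median 0.08), against 3.19% and 5.18% of all tested genes. In the fit of genes with unshared 3′ sequence alone, 2 were higher. Eif3a, a subunit of the eIF3 initiation complex, had 925, 909.7 and 1082 CPM in siWdr5 and 671, 428 and 430.4 in siBard1 (0.98 ± 0.21, edgeR adjusted p 0.000299). Without replicate 3 its adjusted p was 0.109, and 0 translation factors were called. Of the cytosolic HSP90 chaperones, Hsp90aa1, the inducible form, was lower in siWdr5 with 4623, 4065 and 3645 CPM against 7777, 6956 and 7706, and 11191, 9362 and 9738 in nt (-0.87 ± 0.13, edgeR adjusted p 8.65e-08). Hsp90ab1, the constitutive form, was higher with 1492, 1549 and 1699 CPM against 1166, 805 and 819 (0.79 ± 0.18, edgeR adjusted p 0.000556). Hsp90ab1 lost its call without replicate 3 (adjusted p 0.0981), and 18.7% of its 3′ sequence is shared with other genes. Srsf3, a splicing factor, was lower with 832, 881 and 598 CPM against 1900.3, 2159 and 1479 (-1.26 ± 0.17, edgeR adjusted p 1.67e-09), and 37.9% of its 3′ sequence is shared with 1 gene. Hnrnpu, a nuclear RNA-binding protein, was higher with 634, 512 and 484 CPM against 303, 223 and 285 (0.95 ± 0.24, edgeR adjusted p 0.00295).

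Of 50 nuclear-encoded respiratory chain genes, 4 were called lower and 0 higher, against 5.18% and 3.19% of all tested genes. Their median was -0.10, and 0.00 with RLE size factors, under which 1 was higher. Ndufa4, which encodes a small subunit of the chain, had 211, 270.1 and 266 CPM in siWdr5 and 687, 565 and 708 in siBard1 (-1.39 ± 0.23, edgeR adjusted p 5.35e-07). Uqcrh, of complex III, had 581, 299 and 389 CPM against 1166, 651 and 701 (-0.96 ± 0.23, edgeR adjusted p 0.00147). Ndufa2 and Cycs, the latter encoding cytochrome c, lost their calls without replicate 3 (adjusted p 0.158 and 0.153), Ndufa2 also without replicate 1 (0.0680) and Cycs without replicate 2 (0.0510), and both on leaving out siWdr5 replicate 3 alone (0.0546 and 0.0544). Prdx1, a peroxiredoxin that removes hydrogen peroxide, had 779, 839 and 873 CPM in siWdr5, 1437, 1679 and 2291 in siBard1 and 1898, 1809.7 and 2867 in nt (-1.12 ± 0.18, edgeR adjusted p 1.66e-07). Of 25 proteasome genes 3 were called lower, against 5.18% of all tested genes, and 0 without replicate 3.

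Of 15 mitochondrially encoded genes, 5 were called lower and 2 higher, against 5.18% and 3.19% of all tested genes. Of the 7 with unshared 3′ sequence, 3 were lower and 1 higher. Without replicate 1, 2 of the 15 were lower and 2 higher. Leaving out replicate 2 or replicate 3 gave 3 lower and 0 higher. mt-Nd1 lost its call without replicate 1 or 2 (adjusted p 0.0564 and 0.0714). mt-Nd4, a subunit of complex I, had 14092, 14428 and 15311 CPM in siWdr5, 31522, 24793 and 18966 in siBard1 and 21232, 14477 and 14345 in nt (-0.75 ± 0.12, edgeR adjusted p 5.37e-07). siBard1 differed from nt by 0.59 (edgeR adjusted p 0.000225) and siWdr5 by -0.17 (edgeR adjusted p 0.314). mt-Atp8 and mt-Nd4l, the genes called higher, overlap mt-Atp6 and mt-Nd4, which were called lower, so that their counts are uncertain. mt-Nd4l also shares 98.9% of its 3′ sequence with 1 gene. mt-Atp6 and mt-Co2, both called lower, share 3′ sequence as well, so their counts are uncertain too. mt-Atp8 lost its call without replicate 2 or 3 (adjusted p 0.161 and 0.0812) or siWdr5 replicate 2 (0.0710). mt-Nd4l, named after its value was seen, had 951, 1734 and 1272 CPM in siWdr5 replicates 1 to 3 and 1069.9, 737 and 646 in siBard1, so that it was lower in siWdr5 in replicate 1 and higher in the others, and it lost its call without replicate 2 or 3 (adjusted p 0.314 and 0.297).

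**Figure D4:**
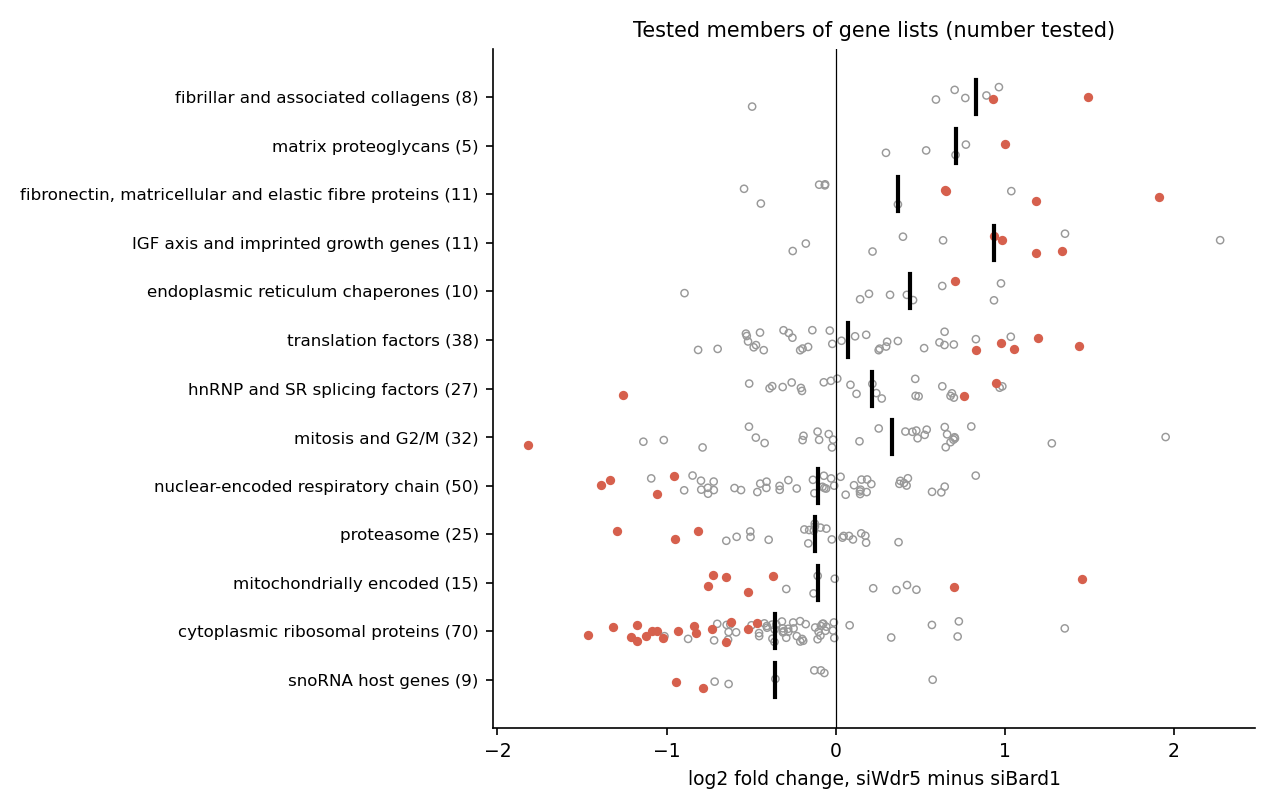
Log2 fold change of siWdr5 minus siBard1 for the tested members of gene lists, 1 point per gene, with filled points for called genes, open points for the others and a bar at the median of each list. The median is 0.83 for collagens and -0.36 for ribosomal proteins.

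Pluripotency genes were mostly too low to test: of 34 listed, 2 passed the filter. Apela, which encodes a secreted peptide expressed in pluripotent cells, was the 1 called and was named after its value was seen. It had 0, 0 and 1 counts in siWdr5, 4, 6 and 18 in siBard1 and 2, 3 and 14 in nt. By counts the ratio of siBard1 to siWdr5 was 26.6, and its exact 95% limits were 4.39 and 1086 (edgeR adjusted p 9.75e-05). The adjusted p was 0.00135, 0.00385 and 0.0197 without replicates 1, 2 and 3. The gene (chr8:65028417-65037336) overlaps Gm45886 on the same strand, so the counts may include that transcript.

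Of 32 tested genes of mitosis and G2/M, 1 was called lower, Pttg1 (securin), against 5.18% of all tested genes. Of 15 of DNA replication, 1 was called lower, Gmnn (geminin). Pttg1 and Gmnn had log2 fold changes of -1.82 ± 0.58 and -1.62 ± 0.50 (edgeR adjusted p 0.0269 and 0.0216). They rest on 8 and 11 counts in siWdr5, and lost their calls without replicate 3 (adjusted p 0.0684 and 0.630), Pttg1 also without replicate 2 (0.398). Leaving out siWdr5 replicate 3 (0.0755 and 0.305) or siBard1 replicate 1 (0.0676 and 0.0648) ended both calls, siWdr5 replicate 2 (0.189) or siBard1 replicate 2 (0.108) that of Pttg1, and siBard1 replicate 3 (0.202) that of Gmnn. Of 7 tested genes of homologous recombination and Fanconi repair, the pathway of BARD1, 1 was called, Swi5, lower in siWdr5 at -0.84 ± 0.23 (edgeR adjusted p 0.00872, with 0.197 lacking replicate 3, 0.0541 lacking replicate 1, 0.248 lacking siWdr5 replicate 3 and 0.0736 lacking siBard1 replicate 1). Swi5 shares 19.6% of its 3′ sequence with other genes, and 0 members with unshared 3′ sequence were called. With RLE size factors 1 gene of this list and 1 of mitosis and G2/M were also called higher. Of 7 tested members of WDR5-containing complexes and 13 p53 targets, 0 were called (medians -0.13 and 0.09), and with RLE size factors 1 p53 target was higher. Of 41 gene lists in all, 15 had no called member, among them basement membrane, glycolysis, and sterol and fatty acid synthesis. Over all lists 72 of 590 tested members were called (12.2%), against 8.36% of all tested genes.

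The direction of the difference moved with transcript length. Among protein-coding genes without shared 3′ sequence, the longest annotated transcript had a median of 5625 bases for the 60 genes called higher in siWdr5, 1633 for the 61 called lower and 3564 for the 2108 tested. Of 93 genes with transcripts of up to 1000 bases, 18.3% were called lower and 1.08% higher, while of 183 genes over 8000 bases 0 were lower and 5.46% higher. The median log2 fold change was -0.50 in the shortest class and 0.45 in the longest.

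Transcripts over 4000 bases took 38.8, 38.4 and 37.4% of the counts of these genes in siWdr5 replicates 1 to 3, 30.1, 29.2 and 29.3% in siBard1 and 27.2, 29.8 and 27.1% in nt. The siWdr5 libraries lay above those of both other groups. Across 42 conditions siWdr5 stood at rank 3 from the top with a mean of 38.2%, after Day00 (39.6%) and Day03 (39.3%). Col1a1, Col1a2, Fbln2, Sfrp1 and Cdh11 lie in the class of 4000 to 8000 bases, whose median log2 fold change was 0.29. H2afz, Npm1 and Ndufa4 lie in the class of 1000 to 2000 bases, whose median was -0.14. The part of transcript length in the results on single genes and on gene lists, ribosomal proteins among them, was not tested.

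**Figure D5:**
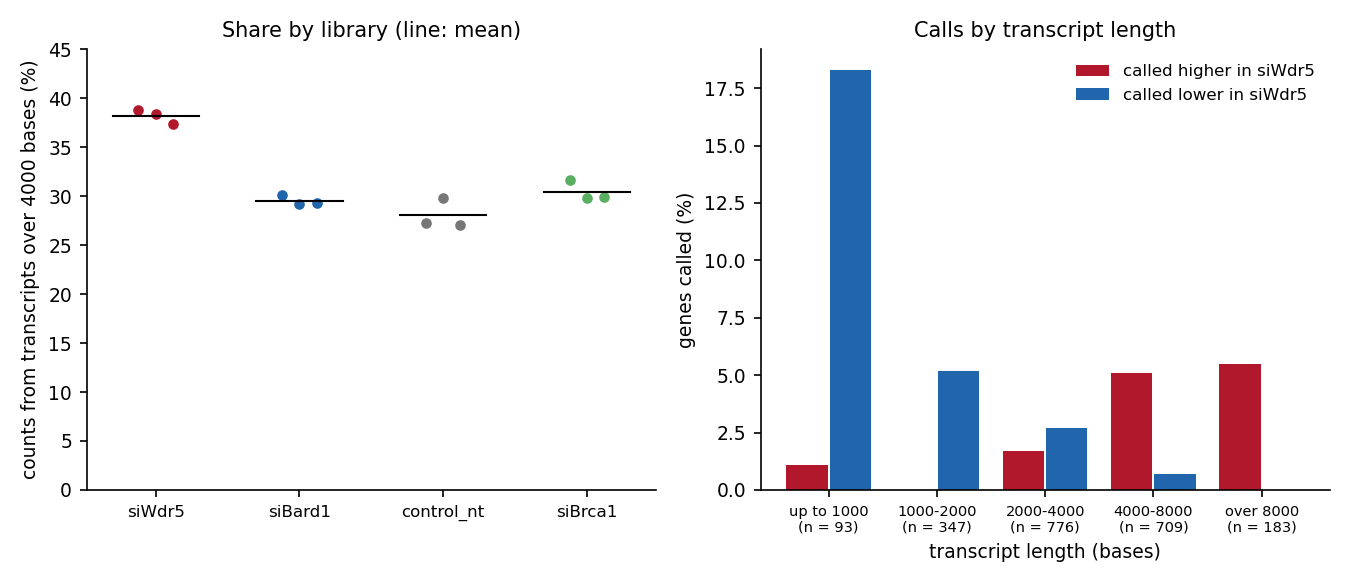
Transcript length and the comparison for protein-coding genes with unshared 3′ sequence: the share of their counts from transcripts over 4000 bases in each library, in percent, with a line at the mean (left), and the percent of genes called higher (red) or lower (blue) in siWdr5 by class of length in bases (right). The share is 37.4 to 38.8% in siWdr5 and 29.2 to 30.1% in siBard1.

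The untransfected time course, whose libraries are not those compared here, gives the course of the same genes. 22.2% of tested genes differed between Day00 and Day06. Of the 96 genes higher in siWdr5, 28 (29.2%) fell between Day00 and Day06 and 9 rose, against 11.5% and 10.7% of all tested genes. Of the 156 lower genes, 64 (41.0%) rose and 7 fell. Among protein-coding genes with unshared 3′ sequence, 19 of 60 higher genes fell (31.7%, against 14.7% of all such genes) and 18 of 61 lower genes rose (29.5%, against 7.26%). Col1a1 went from a mean of 1327 CPM on Day00 to 458 on Day06, Vcan from 804 to 286 and Fbln2 from 516 to 124.22. Sfrp1, also higher in siWdr5, went the other way, from 89.8 CPM to 696, and Hmga2, lower in siWdr5, fell from 2860.1 to 1052.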

How the data were processed

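Day 6 CEL-Seq2 libraries of siWdr5, siBard1 and nt were compared. The deposited table holds counts of unique molecular identifiers per gene. Per the study's methods, the authors aligned reads with Bowtie2 to mm10 and counted them with the CEL-Seq2 pipeline. A deposited log2 table holds the authors' log2 CPM after size-factor scaling and regression of batch, and served for an alternative only. Libraries were assigned by their column names. 127 libraries with at least 10000 counts (29656 to 235292) entered 1 edgeR 4.0.16 quasi-likelihood fit of 3013 genes with condition and replicate as factors and TMM scaling (83 residual degrees of freedom), and 2 shallower ones were left out. P-values were adjusted by Benjamini-Hochberg. Same-numbered siWdr5 and siBard1 libraries correlated in their deviations at 0.0841, 0.103 and 0.222, and the number marks the sequenced pool. Fold changes are log2 of siWdr5 over siBard1 with SE. Positions, transcript lengths and sequences came from the GENCODE annotation of GRCm38. A gene counted as shared when over 10% of the 31-base words in its last 500 bases occur in another gene. Named genes had an adjusted p under 0.05 and reached 100 CPM on average in siWdr5 or siBard1 and the same sign in all 3 replicate pairs: the 10 largest changes and 5 next lowest p-values in each direction, and up to 4 called members of each list, with the targets. Members and lists were chosen with earlier results of these data known.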

Additional observations from a re-analysis of the deposited data

How the results depend on the processing

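Replicate numbers mark sequenced pools, and the replicate block was part of the fit reported. Without the replicate block 127 genes were called (49 higher in siWdr5, 78 lower), in place of 252 (96 and 156). Without a filter on low counts the counts were 105 (34 and 71) of 30778 genes tested. By limma on the deposited log2 values they were 33 (12 and 21) of 10568. With genes of unshared 3′ sequence alone, an alternative chosen after seeing the data, they were 98 (32 and 66) of 2145, and list members called were 12 higher and 28 lower in place of 27 and 45. Leaving out 1 replicate pair or 1 library gave 88 to 240 genes (37 to 84 higher and 51 to 156 lower), and leaving out 1 replicate pair gave 10 to 24 list members higher and 19 to 40 lower. The cause of these differences was not tested beyond the fewer samples or genes. DESeq2 called 228 genes, the 6 libraries alone 251 and RLE size factors 257. Of 80 named genes 42 had a value in all 18 alternatives, since the genes of unshared 3′ sequence held 47 of them and other filters dropped some. Of those 42, 7 were called in every alternative. No named gene changed direction in an alternative that gave it a value. At 1 count worth 6.94 to 17.1 CPM, changes of the targets and of most pluripotency genes could not be measured.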

Other observations

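Gm42418 (chr17:39846958-39848788), named after its value was seen because of its abundance, had 24209, 33119.7 and 31533 CPM in siWdr5, 15409.7, 14872 and 11864 in siBard1 and 21749, 25156 and 19852 in nt. Its log2 fold change of siWdr5 to siBard1 was 1.07 ± 0.18 (edgeR adjusted p 2.09e-06), and the call held without any 1 replicate. Gm43333 had 1202, 952 and 2098 CPM in siWdr5, 655, 377 and 854 in siBard1 and 1832, 1167 and 2009.7 in nt (1.15 ± 0.17, edgeR adjusted p 4.07e-08), with 26.2% of its 3′ sequence shared with 1 gene. Against nt it was -0.24 in siWdr5 (edgeR adjusted p 0.252) and -1.39 in siBard1 (edgeR adjusted p 1.87e-11).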
